A study of Rattus norvegicus with 144 samples.

Results

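The pancreas of 4 male Sprague Dawley rats given 60 mg/kg AMG B by mouth each day was profiled on day 14 and set against the pancreas of 4 control rats of the same study. The members were chosen by their labels: animals 33 to 36 of the 60 mg/kg group and animals 25 to 28 of the 0 mg/kg group, 8 of the 144 samples of the series. AMG A and AMG B are coded compounds that the submitters describe as antiangiogenic, and the series covers their effects in several organs of rats aged 8 to 10 weeks. The other pancreas samples used here were 4 animals given 3 mg/kg AMG B (animals 29 to 32), and, from the AMG A study, 4 animals at each of 0, 3 and 30 mg/kg, all on day 14. The adrenal and liver of the same 60 mg/kg and control animals were used for the comparison of organs. Other AMG B arrays of those organs entered the fits for the estimate of spread only. Every group was made of separate animals, 1 array each. The labels name neither the vehicle of the 0 mg/kg animals nor the target of either compound.

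The exocrine pancreas is built of acinar cells, which make and store digestive enzymes, and of ducts that carry these to the gut. Islets of endocrine cells lie within it and are fed by a dense network of fenestrated capillaries, which in rodents depend on vascular endothelial growth factor (VEGF) signalling from epithelial Vegfa to its endothelial receptor Kdr. When acinar cells are injured or inflamed they switch on secreted C-type lectins of the Reg3 group, and the same cells, because of their very high rate of protein synthesis, rely on the unfolded protein response and on the ATF4 pathway that answers amino acid shortage.

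The deposited values were scores standardised per probe set, so a difference of 1 is about 1 SD of that probe set over the arrays used for the scaling. Which arrays those were was not settled here, and scores need not average 0 over this table. Apoa1, a liver gene, had -0.98 to -0.97 in the 8 pancreas arrays. It had -0.97 to -0.96 in control adrenal and 0.53 to 0.72 in control liver. A score gives no level that can be compared between genes, and a fold change cannot be read from it. Each of 14217 genes was represented by 1 probe set. The labelled organ was checked against its markers on all 8 arrays. Each of 9 acinar markers and each of 5 islet markers was above every control liver and control adrenal array, while hepatocyte markers lay below every control liver array and adrenal markers below every control adrenal array. Alb, the albumin gene, ran from -0.96 to -0.63 over the 8 pancreas arrays, above the control adrenal range of -0.98 to -0.97. Of the duct markers, Krt19 and Cftr were above both organs and Spp1 was not. Single animals stood apart in genes of other cells. In animal 33 of the 60 mg/kg group the mean score of 16 lymphocyte and lymph node genes was 4.04, against -0.16 to 0.21 in the other 3 treated animals and 0.01 to 0.14 in the controls. The same animal was the highest of its group for the lists of macrophage, endothelial and smooth muscle genes, at 1.52, 1.07 and 2.82. Animal 36 was high for 9 skeletal muscle genes, at 3.62. Control animal 28 was high for adipocyte genes, at 1.99, and for mesothelial genes, at 3.08. Lymphocyte means as high as 5.59 also occurred in control pancreas of the AMG A study. The part of such tissue in the results below was not tested, and each count of list members is given with and without animal 33.

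**Figure D1:**
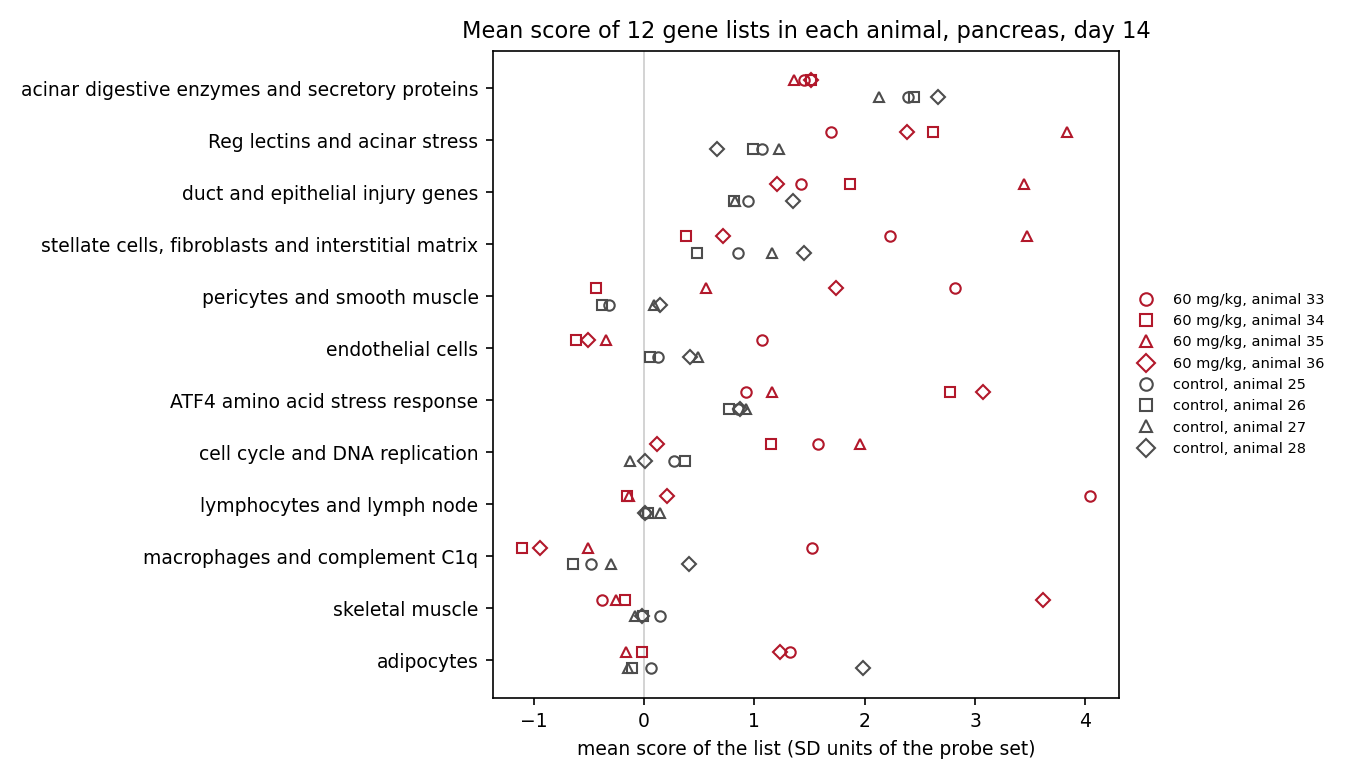
Mean score (horizontal axis, SD units of the probe set) of 12 gene lists in each of the 4 animals at 60 mg/kg (red, upper row of each pair) and the 4 controls (grey, lower row), with 1 symbol per animal. The acinar enzyme means of the treated animals lie between 1.35 and 1.52, below all controls, and animal 33 (red circle) lies alone for lymphocyte genes at 4.04.

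In limma's moderated test 1777 genes differed between 60 mg/kg and control at an adjusted p under 0.05, which is 12.5% of those tested. Of these 986 were higher (6.94% of those tested) and 791 lower (5.56%), the shares beside which each list count below is read. Without animal 33 the count was 1172 (8.24%), of which 716 were higher (5.04%) and 456 lower (3.21%), and 1054 of the 1777 genes remained called. Without control animal 26 it was 1033. In 772 of the higher and 687 of the lower genes every treated animal lay beyond every control animal. Over all genes 19.6% had groups that did not overlap in this way, 10.1% with the treated animals higher and 9.49% with them lower. The median difference over all genes was 0.045. The called genes were chosen by their difference from the AMG B controls. Their differences from pancreas groups not used for that choice can be smaller for this reason alone. The median difference of the 791 lower genes was -1.81 against these controls, -0.99 against the 3 mg/kg animals and -0.88 against the AMG A controls. For the 986 higher genes these medians were 1.40, 1.05 and 0.97. In 164 of the higher and 122 of the lower genes all 4 animals at 60 mg/kg lay beyond all 20 other pancreas arrays. All 4 AMG B controls lay beyond all 20 others, on the opposite side, in 10 and 13. The mean at 60 mg/kg lay beyond that of every other pancreas group in 951 and 730. These counts were made among the called genes only, whose choice favours extreme values in both compared groups. Their shares over all genes were not counted.

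**Figure D2:**
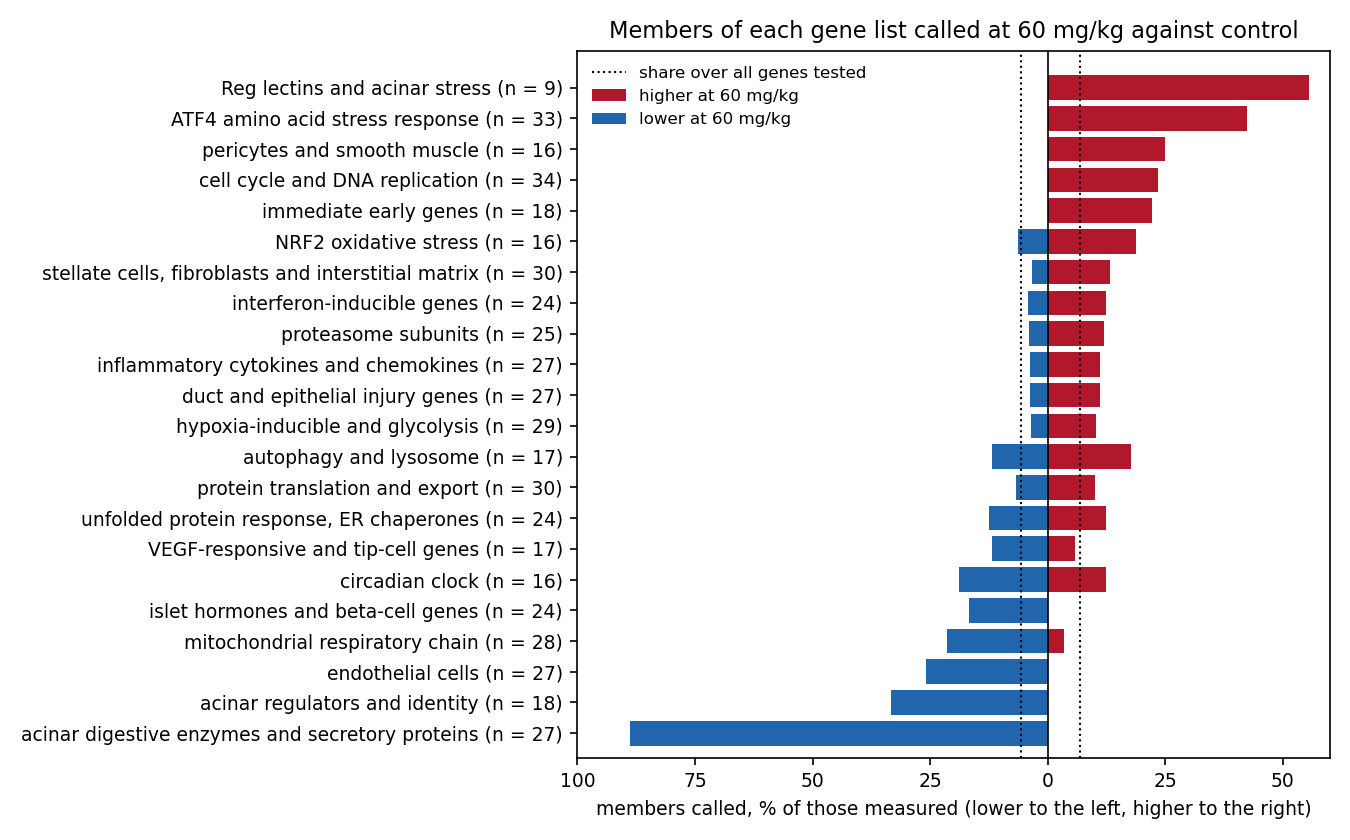
Share of the measured members of each gene list that were called higher (red, to the right) or lower (blue, to the left) at 60 mg/kg against control, in percent, for lists with 3 or more called members. Dotted lines mark the shares over all genes, 6.94% higher and 5.56% lower; 24 of 27 acinar enzyme genes lie on the lower side and 14 of 33 genes of the ATF4 list on the higher side.

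Digestive enzyme genes were lower at 60 mg/kg almost without exception. Of 27 measured acinar enzyme and secretory genes 24 fell and none was called higher, with a median difference of -1.07 against 0.045 over all genes. Without animal 33 the count was 23, with only the 8 compared arrays in the fit it was 20, and after quantile normalization 18. In tissue RNA of this kind fewer cells of a type and less RNA per cell cannot be told apart.

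Amy2a3, a pancreatic amylase that digests starch, lies at chr2:204005840-204014412 (GRCr8). Its scores were 1.61, 1.6, 1.47 and 1.46 in animals 33 to 36 at 60 mg/kg, against 2.76, 2.68, 2.39 and 3.06 in control animals 25 to 28. The groups did not overlap (difference -1.19, SE 0.18, adjusted p = 0.00043), and the spread among treated animals was narrower than among controls. Ctrb1, the precursor of the protease chymotrypsin B, lies at chr19:56562220-56566978 and had 1.7, 1.56, 1.49 and 1.54 at 60 mg/kg, against 2.88, 2.75, 2.38 and 3.12 in controls (difference -1.21, SE 0.17, adjusted p = 0.00025). Again every treated animal was below every control. Cel, the bile salt-activated lipase, had 1.81, 1.78, 1.5 and 1.65 at 60 mg/kg, against 2.82, 2.65, 2.39 and 3.14 in controls (difference -1.07, SE 0.16, adjusted p = 0.00055). Zg16, a zymogen granule lectin, had 1.71, 1.7, 1.58 and 1.58 at 60 mg/kg, against 2.77, 2.7, 2.38 and 3.12 in controls (difference -1.1, SE 0.17, adjusted p = 0.00053). In each of these 4 genes control animal 27 was the lowest control and animal 28 the highest. Amy1, annotated as a salivary-type amylase, had -0.45, 0.076, -0.85 and -0.30 at 60 mg/kg, against 1.26, 1.28, 1.08 and 1.16 in controls (difference -1.57, SE 0.22, adjusted p = 0.00032). Probe sets of near-identical amylase, trypsin and elastase genes may share signal, so these are not fully separate measurements.

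Most of these genes scored alike in control liver and adrenal, far below pancreas, so for them the height of the pancreas score above those 2 organs was also taken as a share of the control height. This measure was added after the data were seen and takes the level of those organs as background. Amy2a3 stood at 62.3% of the control height at 60 mg/kg (animals 59.9% to 64.6%), and at 90.7% at 3 mg/kg. Ctrb1 stood at 62.4% and Cpa1, a carboxypeptidase, at 66.8%, with 87.1% and 88.4% at 3 mg/kg. Amy1, which had the largest fall in score of the list, Klk1 and Dnase1 differed between those 2 organs and have no such share. The lowest share among the rest was that of Tff2, a trefoil peptide of the secretory granules, at 58.5% (animals 46.9% to 66.2%). The remaining 24 acinar genes, which include Prss3, stood at least 2 above liver and adrenal in the AMG A controls and had a median of 65.8%, with a range of 58.5% to 84.8%. Another 251 genes met the same condition, and their median was 70.8%, with 138 under 75% and 45 over 100%. Pancreas-restricted genes outside the list were thus also mostly below the control height, over a wider range.

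The list held 3 members that did not pass. Prss3, a trypsinogen, had 1.66, 1.72, 1.33 and 1.45 at 60 mg/kg, against 1.04, 2.29, 1.74 and 2.57 in controls (-0.37, adjusted p = 0.5). Klk1, a kallikrein, and Dnase1, a nuclease, had mean scores of 1.56 and -0.22 at 60 mg/kg, against 1.54 and -0.99 in controls (adjusted p = 0.99 and 0.69). Of the genes that fell, Prss2 was the only one whose call ended in some of the fits with 1 animal left out, with an adjusted p of up to 0.08; without animal 33 it was 0.052.

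Promoter stretches of 4 acinar genes are shown because the acinar transcription factor complex PTF1 binds a paired motif, an E-box (CANNTG) followed by a TC-box (TTTCCC). Both strands were searched, with 4, 5, 6, 14, 15 or 16 bases between the boxes, from 250 bases before to 50 after the start in RefSeq (GRCr8). The pair occurred in 4 of the 22 acinar genes with a promoter in the table (18.2%) and in 0.696% of all 33469 promoters. A listed gene counted if any of its promoters held the pair, while the share over all is per promoter. A match of letters is a description and not a measured binding site. Capitals mark the 2 boxes, and each line reads 5′ to 3′ on the gene's strand.
Cel, chr3:32289084-32289139, minus strand: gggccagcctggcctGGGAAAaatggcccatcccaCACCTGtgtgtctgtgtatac
Prss2, chr4:71244831-71244876, plus strand: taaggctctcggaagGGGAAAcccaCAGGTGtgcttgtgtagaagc
Cela1, chr7:133665144-133665189, minus strand: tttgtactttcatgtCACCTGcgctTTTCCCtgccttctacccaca
Ctrb1, chr19:56567154-56567199, minus strand: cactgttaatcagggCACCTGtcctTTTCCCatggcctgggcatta

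All 4 of these genes fell. Cel and Ctrb1 are given above. Cela1, a chymotrypsin-like elastase, stood at 64% of the control height (-1.13, adjusted p = 0.0017), and Prss2, a trypsinogen, at 72.9% (-0.80, adjusted p = 0.027). The 18 others with a promoter held no such pair in this window, and most of those fell too.

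Among 18 measured regulators and identity genes of acinar cells 6 fell and none was called higher (median difference -0.77); without animal 25, 26, 33 or 35 it was 3, with the 8 compared arrays alone 1 and after quantile normalization 1. Ptf1a, which specifies acinar fate, had 1.08, 1.82, 1.7 and 2.49 at 60 mg/kg, against 2.77, 2.43, 2.04 and 2.87 in controls, so the groups overlapped (-0.76, adjusted p = 0.1). Bhlha15, also called Mist1, which organises the secretory apparatus, had 1.0, 2.22, 1.88 and 2.35 at 60 mg/kg, against 2.68, 2.77, 2.83 and 1.92 in controls (-0.69, adjusted p = 0.33). Serpini2, a serpin of the pancreas, fell to 1.66, 1.86, 1.79 and 1.56 at 60 mg/kg, against 2.68, 2.65, 2.14 and 2.52 in controls (difference -0.78, SE 0.18, adjusted p = 0.01). Erp27, an endoplasmic reticulum protein, also fell (difference -0.88, SE 0.23, adjusted p = 0.016). Pdia2, a pancreatic disulfide isomerase, Gata6, a transcription factor, Xbp1, which drives the secretory programme, and Aqp12a, an acinar aquaporin, were called at adjusted p = 0.021, 0.019, 0.045 and 0.043. Each of these 4 calls ended in 2 to 7 of the 8 fits that left out 1 animal, with adjusted p of up to 0.072, 0.06, 0.12 and 0.15. The other probe set of Gata6 was called higher (0.85, adjusted p = 0.011), so the direction of that gene is not settled.

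**Figure D3:**
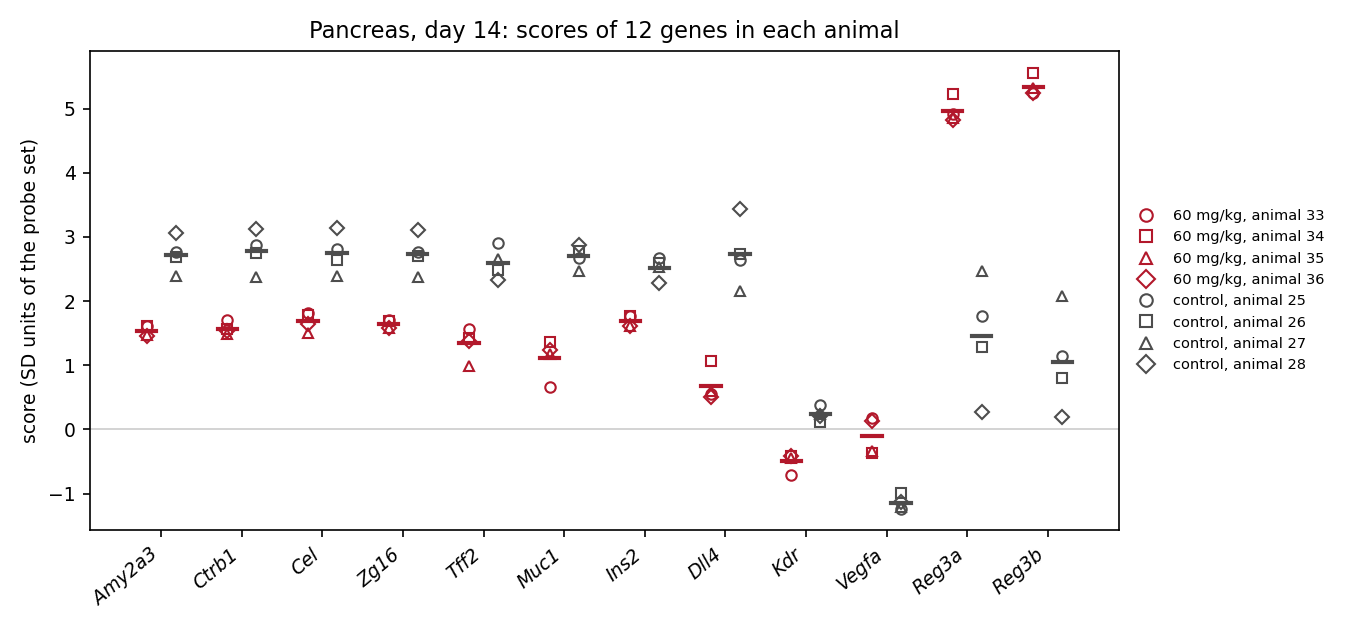
Scores (vertical axis, SD units of the probe set) of 12 genes in each animal at 60 mg/kg (red, left of each pair) and control (grey, right), with 1 symbol per animal and a bar at the group mean. In all 12 the groups do not overlap: acinar, islet and vascular genes are lower at 60 mg/kg, and Vegfa, Reg3a and Reg3b are higher.

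The Reg3 lectins moved the other way. Reg3b, a secreted C-type lectin also known as pancreatitis-associated protein, lies at chr4:112419776-112423014. It had 5.24, 5.56, 5.32 and 5.25 in the animals at 60 mg/kg, against 1.14, 0.80, 2.09 and 0.19 in controls (difference 4.29, SE 0.39, adjusted p = 4.2e-06). All treated animals lay close together and far above every control. Reg3a, its neighbour at chr4:112430397-112433163, had 4.92, 5.22, 4.86 and 4.83 at 60 mg/kg, against 1.77, 1.28, 2.48 and 0.27 in controls (difference 3.5, SE 0.39, adjusted p = 3.1e-05). Both kept their calls in every fit that left out 1 animal and in the fit on the 8 compared arrays alone (adjusted p = 0.005 and 0.014). For Reg3b the mean score was 1.05, 0.93 and 5.34 at 0, 3 and 60 mg/kg, and for Reg3a it was 1.45, 1.45 and 4.96.

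The 90 bases before the start of the 3 Reg3 genes, from RefSeq (GRCr8), are shown because the genes lie together on chromosome 4. Capitals mark the longest run of letters that the Reg3b and Reg3a stretches share, 12 bases, which was found in 5 of all 33469 promoters (0.0149%) and not in that of Reg3g. The run was picked from these stretches, and any run of this length is rare, so the share is a description and not a result.
Reg3b, chr4:112419686-112419775, plus strand: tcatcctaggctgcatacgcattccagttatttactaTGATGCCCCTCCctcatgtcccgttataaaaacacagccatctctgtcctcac
Reg3a, chr4:112430307-112430396, plus strand: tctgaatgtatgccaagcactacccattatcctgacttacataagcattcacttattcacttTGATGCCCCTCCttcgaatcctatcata
Reg3g, chr4:112484739-112484828, minus strand: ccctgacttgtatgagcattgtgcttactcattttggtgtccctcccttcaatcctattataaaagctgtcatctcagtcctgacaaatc

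Reg3g had 0.12, 2.04, 11.1 and 3.91 at 60 mg/kg, against -0.24, -0.16, 0.89 and -0.012 in controls (difference 4.18, SE 1.34, adjusted p = 0.046). The groups overlapped, animal 35 was far above the rest, and the call ended in 5 of the 8 fits that left out 1 animal (adjusted p of up to 0.1). In the whole list of Reg lectins and acinar stress genes 5 of 9 measured members rose, with none lower, and the same number without animal 33. The count was 2 without control animal 25, 3 without animal 26, 27, 28 or 35, and 2 with the 8 compared arrays alone. Clu, the secreted chaperone clusterin, was 1.48, 1.22, 2.63 and 1.61 at 60 mg/kg, against 0.42, 0.99, 0.61 and 0.79 in controls (difference 1.03, SE 0.28, adjusted p = 0.02), and Lcn2, the acute-phase lipocalin, was 0.23, 3.1, 5.15 and 0.45 at 60 mg/kg, against 0.19, 0.13, 0.034 and -0.025 in controls (difference 2.15, SE 0.66, adjusted p = 0.038). For Lcn2 animals 34 and 35 were high and 33 and 36 close to the controls. The call of Clu ended without animal 25 or 35 (adjusted p of up to 0.065) and that of Lcn2 in 6 of 8 omissions (up to 0.093). Reg1a, the islet and acinar regenerating lectin, had 2.33, 2.3, 2.04 and 2.1 at 60 mg/kg, against 3.46, 2.22, 2.5 and 1.39 in controls (-0.20, adjusted p = 0.71).

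Among islet genes the insulin genes were lower and the glucagon and somatostatin genes were not called. No islet gene was called after quantile normalization, where Ins2 was -0.54 (adjusted p = 0.15) and Ins1 -0.39 (adjusted p = 0.26). Ins2, an insulin gene, fell to 1.77, 1.76, 1.61 and 1.61 at 60 mg/kg, against 2.67, 2.6, 2.54 and 2.28 in controls (difference -0.83, SE 0.20, adjusted p = 0.013), or 71.9% of the control height. The 251 pancreas-restricted genes outside the acinar list had a median of 70.8%, so this share is not read as particular to islets. Ins1, the other insulin gene of the rat, had 1.78, 1.74, 1.64 and 1.68 at 60 mg/kg, against 2.59, 2.55, 2.44 and 2.0 in controls (difference -0.69, SE 0.19, adjusted p = 0.027), and its call ended without animal 25, 26, 27 or 35 (adjusted p of up to 0.076). Neither insulin gene overlapped between the groups. Gcg, the glucagon gene of alpha cells, had 2.3, 2.53, 2.76 and 2.38 at 60 mg/kg, against 2.23, 2.1, 2.39 and 0.84 in controls (0.60, adjusted p = 0.32). Sst, the somatostatin gene of delta cells, had 1.99, 6.03, 2.86 and 2.32 at 60 mg/kg, against 0.72, 1.14, 4.1 and 0.32 in controls (1.73, adjusted p = 0.22). Of 24 measured islet genes 4 fell, the other 2 being Mafa, a beta-cell transcription factor, and Kcnj11, a subunit of the ATP-sensitive potassium channel; without animal 27 or 33 the count was 2, with the 8 compared arrays alone 2, and 1 without animal 25, 26 or 35. Mafa and Kcnj11 lost their calls in 6 and 5 of the 8 omissions, with adjusted p of up to 0.12 and 0.076. The median difference of the list was -0.086.

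A group of endothelial genes was lower in the treated animals, among them the angiopoietin receptor Tek. Of 27 measured 7 fell and none rose (median difference -0.34). Animal 33, with high lymphocyte genes, also had an endothelial mean of 1.07, against -0.62 to -0.35 in the other treated animals and 0.05 to 0.49 in controls; without it 6 genes were called and the median difference was -0.70. Tek had -0.96, -1.75, -1.31 and -0.86 at 60 mg/kg, against 0.67, -0.52, 0.34 and 1.11 in controls (difference -1.62, SE 0.36, adjusted p = 0.0068). Kdr, the main VEGF receptor of blood vessel endothelium, at chr14:32572031-32615204, had -0.71, -0.42, -0.44 and -0.42 at 60 mg/kg, against 0.38, 0.11, 0.24 and 0.21 in controls (difference -0.73, SE 0.17, adjusted p = 0.0089). Animal 33 was the lowest of its group for Kdr although its endothelial mean was the highest. Ptprb, an endothelial phosphatase that acts on Tek, had -0.70, -1.01, -0.75 and -0.88 at 60 mg/kg, against 1.24, 0.18, 2.3 and 1.37 in controls (difference -2.11, SE 0.47, adjusted p = 0.0071). These 3 genes did not overlap between the groups and kept their calls in every omission of 1 animal.

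The other endothelial genes rested more on single animals. Flt1, a VEGF receptor and decoy, had -0.60, -0.15, -0.12 and -0.69 at 60 mg/kg, against 0.038, 0.20, 1.24 and 0.32 in controls, and just missed the threshold (-0.84, adjusted p = 0.051); 1 of its 3 probe sets moved the opposite way. Flt4, the receptor of lymphatic endothelium, had -0.42, -0.66, -0.33 and -0.83 at 60 mg/kg, against -0.82, -0.72, 0.052 and -0.76 in controls (-0.00038, adjusted p = 1). Pecam1, a junction protein of endothelium and of leukocytes, had 3.02, -0.22, 0.62 and -0.44 at 60 mg/kg, against 0.85, -0.10, 1.14 and 1.5 in controls, with animal 33 above the rest (-0.096, adjusted p = 0.96). Nos3, the endothelial nitric oxide synthase, and Aplnr, the apelin receptor, were called at -2.91, adjusted p = 0.014, and -1.53, adjusted p = 0.013. Nos3 lost the call without animal 25 or 26 (adjusted p of up to 0.053) and Aplnr without animal 25 (0.051). Emcn, a sialomucin of capillaries, and Sox7, an endothelial transcription factor, were called at adjusted p = 0.035 and 0.045 and lost the call in 6 and 7 of 8 omissions (up to 0.12 and 0.11). With the 8 compared arrays alone 4 endothelial genes were called lower, and 9 after quantile normalization.

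Dll4, the Notch ligand of endothelial tip cells, was the clearest of the VEGF-responsive genes. It lies at chr3:126770945-126780769 and had 0.55, 1.06, 0.59 and 0.50 at 60 mg/kg, against 2.65, 2.73, 2.15 and 3.43 in controls (difference -2.06, SE 0.25, adjusted p = 6.3e-05). Its mean scores were 2.74, 1.84 and 0.68 at 0, 3 and 60 mg/kg, and 1.78 in the AMG A controls, so the controls of its own study were the highest of these groups. The gene has 2 probe sets with opposite signs, and with their mean it was not called (-0.61, adjusted p = 0.084). Fam167b, an endothelial transcript, had -1.61, -1.69, -2.08 and -1.39 at 60 mg/kg, against -0.091, -0.58, -0.22 and -0.67 in controls (difference -1.3, SE 0.23, adjusted p = 0.0015). Rcan1, a calcineurin inhibitor that VEGF induces in endothelium, rose (difference 0.43, SE 0.11, adjusted p = 0.012). These were the 3 called genes of 17, with the same counts without animal 33, and the median difference of that list was -0.011.

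Vegfa, the main ligand of Kdr, was higher at 60 mg/kg. It lies at chr9:22452854-22468194 and had 0.18, -0.36, -0.33 and 0.12 at 60 mg/kg, against -1.24, -1.0, -1.21 and -1.13 in controls (difference 1.05, SE 0.15, adjusted p = 0.0003), with no overlap and the same sign on both of its probe sets. Of 29 hypoxia-inducible and glycolysis genes 3 rose and 1 fell (median difference 0.38), with 3 and 2 without animal 33. Over all genes 6.94% were called higher and 5.56% lower, and counts this near those shares are not read as a result about the list. Hk1, the hexokinase of most cells outside liver and muscle, had 2.02, 3.91, 4.28 and 4.51 at 60 mg/kg, against 0.51, 0.02, 1.32 and 0.16 in controls (difference 3.18, SE 0.43, adjusted p = 0.00023), with its second probe set the opposite way and no call for the mean of both (0.50, adjusted p = 0.48). Mxi1, a MYC antagonist, had 0.29, -0.011, 1.32 and 0.65 at 60 mg/kg, against -1.88, -1.12, -1.83 and -2.25 in controls (difference 2.34, SE 0.62, adjusted p = 0.019), and lost its call without animal 35 (adjusted p = 0.059). P4ha1, a collagen prolyl hydroxylase subunit, was the member that fell (-1.14, adjusted p = 0.047); 7 of 8 omissions ended its call (up to 0.12). As the list's name covers genes with other regulators too, the count says only how many members moved.

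The mean of the duct gene list was 1.43, 1.87, 3.44 and 1.21 in animals 33 to 36, against 0.94, 0.82, 0.82 and 1.35 in controls, with animal 35 highest. Of 27 duct and epithelial injury genes 3 rose and 1 fell (median difference 1.05), and 5 rose and 1 fell without animal 33. The shares over all genes were 6.94% higher and 5.56% lower, or 5.04% and 3.21% without that animal. Without animal 27, 34 or 35 only 1 rise was called, and with the 8 compared arrays alone none. Lgals3, the lectin galectin-3, had 3.65, 2.97, 5.33 and 1.75 at 60 mg/kg, against 0.28, 0.12, 0.29 and 1.33 in controls (difference 2.92, SE 0.63, adjusted p = 0.0061). Tspan8, an epithelial tetraspanin, had 2.01, 7.85, 6.51 and 2.13 at 60 mg/kg, against 1.98, 1.55, 0.69 and 1.07 in controls (difference 3.3, SE 0.88, adjusted p = 0.02); its call ended without animal 27, 34 or 35 (up to 0.07). Krt19, the keratin of duct cells, had 2.12, 3.91, 8.84 and 2.69 at 60 mg/kg, against 0.99, 1.49, 1.61 and 2.47 in controls, with animal 35 highest (2.75, adjusted p = 0.052; 0.02 without animal 33). Cftr, the chloride channel of ducts, had 0.42, 4.07, 5.44 and 2.0 at 60 mg/kg, against 1.52, 1.29, 0.94 and 1.54 in controls (1.66, adjusted p = 0.14; 0.017 without animal 33). Spp1, osteopontin, was called higher with overlapping groups (0.48, adjusted p = 0.033), and lost the call in 5 omissions (up to 0.11). Muc1, a membrane mucin of acinar and duct cell surfaces, fell to 0.66, 1.36, 1.18 and 1.24 at 60 mg/kg, against 2.67, 2.78, 2.46 and 2.88 in controls (difference -1.59, SE 0.21, adjusted p = 0.00023), without overlap.

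Stromal genes divided the treated animals. The mean of 30 stellate, fibroblast and interstitial matrix genes was 2.23, 0.38, 3.47 and 0.72 in animals 33 to 36, against 0.85, 0.48, 1.16 and 1.45 in controls, so animals 33 and 35 were high, animal 34 lay below and animal 36 within the control range. In that list 4 genes rose and 1 fell, and without animal 33 the counts were 1 and 1. Without animal 34 the rises were 10, without animal 25, 26, 27 or 35 they were 1, without animal 28 they were 2, and with the 8 compared arrays alone nothing in the list was called. Timp1, a metalloprotease inhibitor, had 0.48, 0.26, 1.61 and -0.048 at 60 mg/kg, against -0.28, -0.36, -0.29 and -0.22 in controls (difference 0.86, SE 0.22, adjusted p = 0.017), and was the riser that kept its call in every omission. Lum, a matrix proteoglycan, Loxl1, a collagen cross-linking enzyme, and Pdgfra, a fibroblast receptor for platelet-derived growth factor, had adjusted p = 0.041, 0.035 and 0.049, and 0.15, 0.12 and 0.17 without animal 33. Thbs2, an antiangiogenic matrix protein, was the member that fell, with 0.54, 1.34, 0.78 and 1.0 at 60 mg/kg, against 2.54, 2.56, 2.02 and 4.54 in controls (difference -2.0, SE 0.37, adjusted p = 0.0021).

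Contractile genes of pericytes and smooth muscle were high in animal 33. Of 16 measured 4 rose, and 1 without animal 33 (median difference 1.26). The rises were 8 without animal 34, 0 without control animal 26, 1 without animal 25, 2 without animal 27 or 28, and 0 with the 8 compared arrays alone. Acta2, smooth muscle actin, had 3.34, -0.56, 1.72 and 0.46 at 60 mg/kg, against -1.08, -1.54, -0.56 and -0.97 in controls (difference 2.28, SE 0.59, adjusted p = 0.016; 0.054 without animal 33). Myh11, smooth muscle myosin, had 5.75, 0.20, 0.75 and 1.23 at 60 mg/kg, against -1.13, -1.83, -1.0 and -1.24 in controls (difference 3.28, SE 1.01, adjusted p = 0.038; 0.13 without animal 33). Mylk, the myosin light chain kinase, was 2.5, adjusted p = 0.02, and 0.041 without animal 33. Actg2, an enteric smooth muscle actin, was 3.86, adjusted p = 0.043, and 0.13 without that animal.

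Many genes of the ATF4 amino acid stress response rose, with the highest list means in animals 34 and 36. Of 33 measured 14 rose and none fell (median difference 0.67), and 13 rose without animal 33 and 8 without control animal 26. The mean of the list was 0.93, 2.77, 1.16 and 3.07 in animals 33 to 36, against 0.85, 0.77, 0.92 and 0.87 in controls, so animal 33 lay near the controls. With the 8 compared arrays alone none of the 33 passed. Ddit3, the stress transcription factor CHOP, had 1.67, 7.22, 1.3 and 5.58 at 60 mg/kg, against -0.49, -0.27, -0.23 and -0.52 in controls (difference 4.32, SE 0.84, adjusted p = 0.0029). Trib3, a pseudokinase that feeds back on ATF4, had 0.46, 5.32, 0.47 and 6.94 at 60 mg/kg, against -0.59, -1.08, -1.15 and -0.91 in controls (difference 4.23, SE 0.93, adjusted p = 0.0066). Slc7a3, a transporter of cationic amino acids, had 2.2, 6.3, 1.25 and 8.11 at 60 mg/kg, against 0.40, 0.38, 0.97 and 0.41 in controls (difference 3.92, SE 0.94, adjusted p = 0.011). In all 3 animals 34 and 36 were the highest, and each treated animal was above each control.

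Animals 34 and 36 were also the highest for Vldlr, Atf3, Fgf21 and Gdf15. Vldlr, a lipoprotein receptor, had 2.13, 5.6, 2.87 and 6.82 at 60 mg/kg, against 0.70, 0.78, 1.09 and 0.83 in controls (difference 3.51, SE 0.66, adjusted p = 0.0024), on 3 of its 4 probe sets. Atf3, a stress transcription factor, had 1.11, 6.33, 4.21 and 4.58 at 60 mg/kg, against 2.29, -0.29, 0.017 and 1.08 in controls (difference 3.28, SE 0.86, adjusted p = 0.018), with overlap; its call ended without animal 26, 27 or 34 (up to 0.062). Fgf21, a secreted stress hormone, had 0.19, 1.49, -0.011 and 5.73 at 60 mg/kg, against -0.71, -1.06, -0.68 and -0.58 in controls (difference 2.61, SE 0.75, adjusted p = 0.028), with animal 36 far above the rest, and lost its call without animal 25, 26 or 27 (up to 0.071). Gdf15, a stress hormone that lowers food intake, had 0.83, 2.82, -0.18 and 0.99 at 60 mg/kg, against -0.89, -1.21, -2.34 and -0.51 in controls (difference 2.35, SE 0.49, adjusted p = 0.0048). Stc2, a secreted glycoprotein, Cebpb, a transcription factor, and Mthfd2, a mitochondrial folate enzyme, also rose and kept their calls in every omission (differences 1.81, 0.55 and 0.51). Sesn2, which restrains mTORC1 signalling, Shmt2, a serine-glycine enzyme, Wars1, a tRNA synthetase, and Ppp1r15a, a phosphatase subunit that restores translation, made up the 14, and each lost its call in 1 to 6 omissions (up to 0.051, 0.054, 0.083 and 0.092).

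The transcript of the factor itself did not pass. Atf4, which is controlled mainly at translation, had 2.04, 2.09, 1.9 and 2.45 at 60 mg/kg, against 2.1, 2.04, 2.03 and 2.24 in controls (0.017, adjusted p = 0.97). Asns, asparagine synthetase and a textbook target, had 1.71, 2.41, 2.19 and 2.65 at 60 mg/kg, against 2.42, 2.4, 2.24 and 2.52 in controls (-0.16, adjusted p = 0.65). Chac1, a glutathione-degrading target, had 0.68, 4.3, 1.98 and 7.11 at 60 mg/kg, against 1.88, 1.26, 2.47 and 2.7 in controls (1.44, adjusted p = 0.31). The letters of the amino acid response element, TGATGNAA on either strand, occurred in 6 of the 28 listed genes with a promoter in the table (21.4%) and in 3.98% of all 33469 promoters. The first share is per gene, over any of its promoters, and the other is per promoter. The stretches of Fgf21 and Trib3 are shown as the called members that held it, from RefSeq (GRCr8), with the element in capitals, read on the gene's strand and so in reverse.
Fgf21, chr1:105221497-105221534, minus strand: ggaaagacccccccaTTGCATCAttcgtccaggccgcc
Trib3, chr3:161275534-161275569, minus strand: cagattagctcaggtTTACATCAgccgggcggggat

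**Figure D4:**
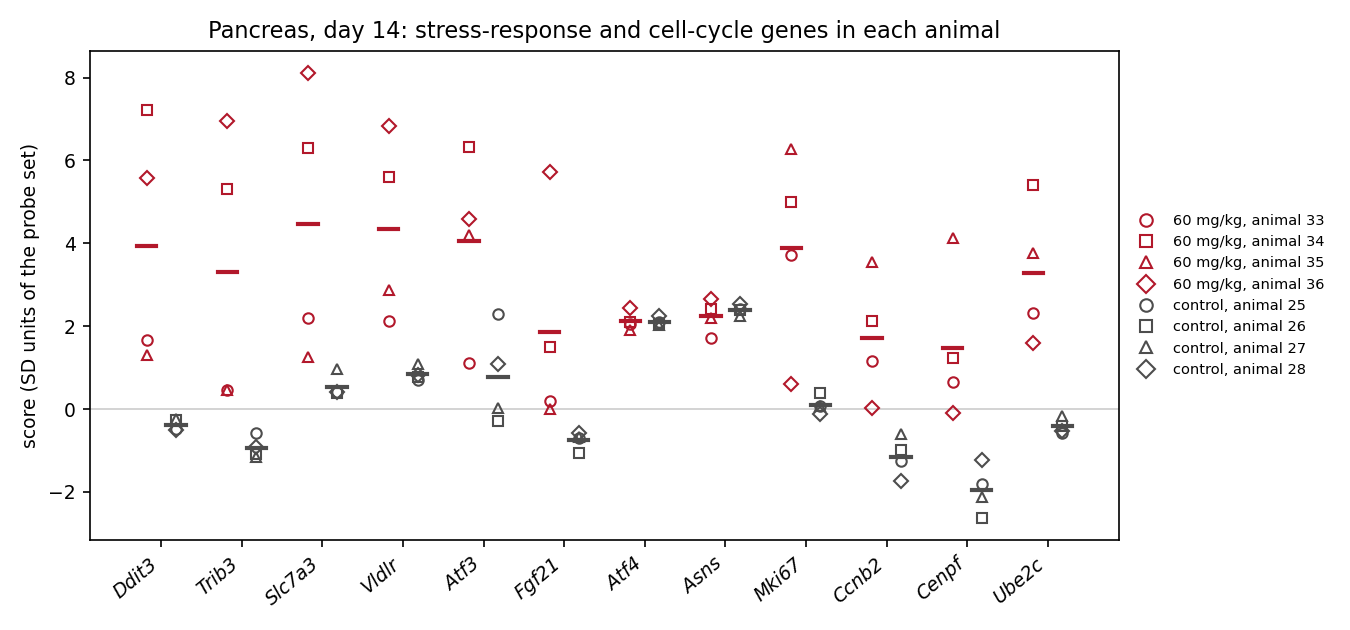
Scores (vertical axis, SD units of the probe set) of 8 genes of the ATF4 list and 4 cell-cycle genes in each animal at 60 mg/kg (red, left of each pair) and control (grey, right), with 1 symbol per animal and a bar at the group mean. Animals 34 and 36 (red square and diamond) lead Ddit3, Trib3 and Slc7a3, while animal 36 is the lowest treated animal for Mki67 at 0.60.

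Endoplasmic reticulum chaperones showed no single direction. Of 24 genes of the unfolded protein response 3 rose and 3 fell (median difference 0.19), with 3 and 0 without animal 33. Pdia4, a disulfide isomerase, had -0.39, -0.12, -0.02 and -0.25 at 60 mg/kg, against -0.80, -0.89, -0.99 and -0.84 in controls (difference 0.68, SE 0.16, adjusted p = 0.009). Creld2 and Hsp90b1, further chaperones, were called higher at adjusted p = 0.033 and 0.036, and lost the call in 5 and 6 omissions (up to 0.1 and 0.1). Hspa5, the chief chaperone BiP, had 1.74, 1.4, 1.0 and 1.54 at 60 mg/kg, against 1.07, 0.51, 0.95 and 0.92 in controls (0.56, adjusted p = 0.095). Sel1l and Edem1, of the degradation machinery, and Ero1b, the pancreatic oxidase of disulfide formation, were called lower at adjusted p = 0.02, 0.046 and 0.039, and none of these calls was kept without animal 33 (0.073, 0.12 and 0.12).

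The mean of the proliferation genes was above all controls in 3 of the 4 treated animals. Of 34 cell-cycle and DNA replication genes 8 rose and none fell (median difference 0.86), with 6 without animal 33, 5 without animal 35, 12 without animal 36 and 2 with the 8 compared arrays alone. The list mean was 1.58, 1.15, 1.96 and 0.12 in animals 33 to 36, against 0.27, 0.37, -0.13 and 0.0075 in controls, so animal 36 lay within the control range. Mki67, the proliferation antigen, had 3.73, 4.99, 6.27 and 0.60 at 60 mg/kg, against 0.081, 0.37, 0.077 and -0.13 in controls (difference 3.79, SE 0.86, adjusted p = 0.0076). Ccnb2, a mitotic cyclin, had 1.15, 2.12, 3.56 and 0.033 at 60 mg/kg, against -1.25, -0.98, -0.61 and -1.75 in controls (difference 2.86, SE 0.56, adjusted p = 0.0032). Cenpf, a kinetochore protein, had 0.64, 1.23, 4.12 and -0.086 at 60 mg/kg, against -1.81, -2.62, -2.12 and -1.23 in controls (difference 3.42, SE 0.60, adjusted p = 0.0013). Ube2c, which drives exit from mitosis, had 2.32, 5.41, 3.77 and 1.58 at 60 mg/kg, against -0.58, -0.40, -0.17 and -0.53 in controls (difference 3.69, SE 0.81, adjusted p = 0.0065). None of the 4 overlapped between groups, nor did Ccna2, a cyclin of S phase (difference 2.61, SE 0.58, adjusted p = 0.0071).

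Cdk1, Tyms and Prc1 completed the 8, and each lost its call in 5 omissions (up to 0.1, 0.074 and 0.086). The AMG A controls had mean scores of 1.11 for Mki67 and 1.01 for Ube2c, above the AMG B controls at 0.10 and -0.42. Which cells divide cannot be read from tissue RNA. The letters TTTGAA, the core of the cell-cycle homology region of mitotic promoters, were searched on both strands and found in 16 of the 29 listed genes with a promoter in the table (55.2%) and in 18.3% of all 33469 promoters. Here too the first share is per gene, over any of its promoters, and the other is per promoter. The first match and its flanks are shown for 4 called genes that held it, from RefSeq (GRCr8), with capitals on the motif.
Prc1, chr1:143659448-143659480, plus strand: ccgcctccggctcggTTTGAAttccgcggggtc
Mki67, chr1:199952690-199952725, minus strand: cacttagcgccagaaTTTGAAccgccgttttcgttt
Ccnb2, chr8:79981852-79981887, minus strand: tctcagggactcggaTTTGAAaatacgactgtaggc
Cdk1, chr20:19265206-19265241, plus strand: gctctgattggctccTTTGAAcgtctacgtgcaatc

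Leukocyte genes gave few calls, although neutrophil and mast cell genes were mostly lower than in the AMG B controls. None of the 16 lymphocyte genes and 1 of 18 macrophage genes, lower, passed, with and without animal 33, which was high in both lists. Of 15 neutrophil and mast cell genes 2 fell, or 1 without animal 33, both mast cell tryptases. The median difference of that list was -1.36. In 11 of the 15 the mean was lower at 60 mg/kg, and in 7 every treated animal lay below every control, against 9.49% over all genes. The list mean was 0.041, 0.64, 0.87 and 0.44 in animals 33 to 36, against 1.07 to 2.36 in controls. It was 0.52 to 0.87 at 3 mg/kg, where no member was called against 60 mg/kg. In the AMG A study it was 0.62 to 1.15 in controls, 1.04 to 1.29 at 3 mg/kg and 1.16 to 1.96 at 30 mg/kg. Tpsab1 had -1.31, -0.76, -0.85 and -0.008 at 60 mg/kg, against 0.58, 1.46, 2.15 and 1.76 in controls (difference -2.22, SE 0.51, adjusted p = 0.0083), and Tpsb2 was -1.6, adjusted p = 0.042, with the call lost in 6 omissions (up to 0.14). Tryptase genes are near-identical, so the pair is not independent. Of 27 cytokine and chemokine genes 3 rose and 1 fell, and 1 rose and none fell without animal 33. The rises were 1 without animal 26, 27 or 35 and 7 without animal 36. Interferon-inducible genes gave 3 higher and 1 lower of 24, with none higher without animal 25, 26 or 33, 1 without animal 35 and 5 without animal 36. For both lists the shares over all genes were 6.94% higher and 5.56% lower. The 16 hepatocyte genes gave no call.

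Housekeeping pathways also held calls. Of 28 respiratory chain genes 1 rose and 6 fell, against 6.94% and 5.56% over all genes, with 1 and 4 without animal 33. Every treated animal lay above every control in 3 and below in 7, against 10.1% and 9.49% over all genes. The median difference was 0.065, close to that over all genes. Ndufb5, a subunit of complex I, had -0.68, 0.72, 0.84 and 0.0089 at 60 mg/kg, against 2.23, 2.42, 2.4 and 1.98 in controls (difference -2.03, SE 0.37, adjusted p = 0.002). Cox6a1, a subunit of cytochrome c oxidase, fell (difference -0.76, SE 0.17, adjusted p = 0.0071), and Sdha, of succinate dehydrogenase, was called higher (0.42, adjusted p = 0.031), with the call lost in 5 omissions (up to 0.095). Ndufa2, another complex I subunit, was -2.16, adjusted p = 0.015, and 0.054 without animal 26. Ost4, a small subunit of the complex that glycosylates secretory proteins, fell to 1.18, 1.05, 0.63 and 0.71 at 60 mg/kg, against 2.26, 2.58, 2.27 and 2.15 in controls (difference -1.42, SE 0.21, adjusted p = 0.00035). Slc38a5, an amino acid transporter of acinar cells, fell to 0.42, 1.22, 1.37 and 1.34 at 60 mg/kg, against 2.36, 2.48, 2.35 and 2.54 in controls (difference -1.34, SE 0.18, adjusted p = 0.00018), the 1 call among 11 transporters, with and without animal 33.

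Vmp1, a membrane protein of autophagosome formation in acinar cells, rose. It had 0.51, 2.75, 1.59 and 2.77 at 60 mg/kg, against -0.64, -1.3, -1.03 and -0.76 in controls (difference 2.84, SE 0.49, adjusted p = 0.0013). Of 17 autophagy and lysosome genes 3 rose and 2 fell, with 3 and 1 without animal 33. Ctsl, a lysosomal protease, rose (difference 0.62, SE 0.13, adjusted p = 0.0042) and Tfeb, the lysosomal transcription factor, fell (difference -2.4, SE 0.61, adjusted p = 0.015). Among 16 NRF2 oxidative stress genes 3 rose and 1 fell, with the same counts without animal 33. Beside this list and the autophagy list, the shares over all genes were 6.94% higher and 5.56% lower. Gsta1, a glutathione transferase, had -1.4, -0.72, -1.71 and -0.84 at 60 mg/kg, against -2.21, -2.33, -2.26 and -2.07 in controls (difference 1.05, SE 0.15, adjusted p = 0.00039), and Gstp1, another transferase, fell (difference -0.73, SE 0.18, adjusted p = 0.015). Nqo1 and Txnrd1, a quinone and a thioredoxin reductase, were called higher and lost the call in 3 and 2 omissions (up to 0.067 and 0.062).

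Clock genes moved in both directions, 2 of 16 higher and 3 lower, with 3 and 2 without animal 33. With the 8 compared arrays alone 1 was called higher and none lower. The shares over all genes were 6.94% higher and 5.56% lower. Per1, a clock repressor that glucocorticoids also induce, had -0.16, -0.79, -0.60 and -0.57 at 60 mg/kg, against -1.8, -2.07, -1.99 and -1.72 in controls (difference 1.37, SE 0.24, adjusted p = 0.0016). Per2 fell to -1.22, 0.97, 0.20 and 0.34 at 60 mg/kg, against 1.31, 1.93, 1.71 and 1.51 in controls (difference -1.54, SE 0.35, adjusted p = 0.0076), and Per3 also fell (difference -1.21, SE 0.29, adjusted p = 0.01). Dbp, a clock output factor, was -0.86, adjusted p = 0.019, and Bhlhe41, a clock repressor, 1.17, adjusted p = 0.014; these lost their calls in 3 and 1 omissions (up to 0.062 and 0.053). The labels give no time of day for the killing of the animals. Of 18 immediate early genes 4 rose, and 2 without animal 33. The rises were 1 without animal 26 or 27, and 1 with the 8 compared arrays alone. Egr1, a growth-factor-induced transcription factor, had 2.96, 3.19, 0.82 and 1.6 at 60 mg/kg, against -0.43, -0.69, -0.75 and -0.35 in controls (difference 2.7, SE 0.63, adjusted p = 0.0091). Klf6 and Ier3 lost their calls in 6 and 5 omissions (up to 0.15 and 0.089).

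By size, the 12 largest rises with no overlap were those of N4bp2l1, Tspan1, Ddit3, Reg3b, Trib3, Cox6a2, Gabrg1, Dolpp1, Rgs19, Slc7a3, Gtpbp2 and Riok3, with differences from 4.83 down to 3.81. N4bp2l1, a protein of unclear function, had 2.75, 5.65, 1.72 and 5.23 at 60 mg/kg, against -0.99, -1.2, -1.21 and -0.58 in controls (difference 4.83, SE 0.73, adjusted p = 0.00049). Tspan1, an epithelial tetraspanin, had 1.64, 8.03, 4.77 and 1.72 at 60 mg/kg, against 0.83, -1.44, -0.58 and -0.63 in controls (difference 4.49, SE 1.12, adjusted p = 0.013). Gtpbp2, a GTPase that helps stalled ribosomes, had 1.5, 5.22, 1.15 and 5.31 at 60 mg/kg, against -0.23, -0.92, -0.37 and -0.62 in controls (difference 3.83, SE 0.82, adjusted p = 0.0056). Riok3, a kinase, had 0.29, 4.76, -0.066 and 5.47 at 60 mg/kg, against -1.01, -1.23, -1.31 and -1.25 in controls (difference 3.81, SE 0.84, adjusted p = 0.0067). In N4bp2l1, Gtpbp2 and Riok3 animals 34 and 36 were the highest, as in the ATF4 list. Gabrg1, a GABA receptor subunit, Dolpp1, of dolichol recycling, and Rgs19, a regulator of G protein signalling, differed by 4.02, 4.0 and 3.95. Cox6a2, the muscle form of a cytochrome c oxidase subunit, reached 0.55, 4.02, 0.20 and 9.85 in the treated animals, with animal 36, high in skeletal muscle genes, far above the rest; 6 of 8 omissions ended that call (up to 0.09). Outside that group, Stac2, an adaptor of calcium channels, was picked after its values were seen for its narrow spread: 3.54, 3.92, 3.54 and 3.7 at 60 mg/kg, against -0.09, -0.084, -0.46 and 0.19 in controls (difference 3.79, SE 0.32, adjusted p = 3.1e-06).

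The 12 largest falls with no overlap were those of Nell1, Lingo2, Ntsr1, Itgb7, Tert, Zscan12, Gip, Cog8, Lrrc27, Coa7, Prrt3 and Zdhhc22, with differences from -5.1 to -3.79. Nell1, a secreted growth factor-like protein, had -1.57, -3.71, -4.79 and -6.83 at 60 mg/kg, against 1.26, 1.17, 1.35 and -0.29 in controls (difference -5.1, SE 0.92, adjusted p = 0.0017). Prrt3, a proline-rich membrane protein, had -2.41, -3.5, -3.02 and -2.6 at 60 mg/kg, against 0.68, 1.67, 0.36 and 1.03 in controls (difference -3.81, SE 0.35, adjusted p = 4.2e-06), and the 3 mg/kg animals and AMG A controls, at means of 1.14 and 0.75, were on the side of its controls. For several others the AMG B controls were the group that stood apart. Ntsr1, a neurotensin receptor, had -1.33, -0.37, -1.07 and -0.46 at 60 mg/kg, against 3.4, 4.14, 3.23 and 3.28 in controls (difference -4.32, SE 0.53, adjusted p = 7.6e-05), but its mean was 0.57 at 3 mg/kg and -0.37 in the AMG A controls. Gip, an incretin hormone of the gut, had 0.28, 0.60, 0.014 and 0.33 at 60 mg/kg, against 4.44, 5.25, 2.07 and 5.78 in controls (difference -4.08, SE 0.62, adjusted p = 0.00053), with means of 1.56 at 3 mg/kg and 1.37 in the AMG A controls. Itgb7, an integrin of gut-homing leukocytes, and Tert, telomerase, had means of 0.35 and -0.90 at 60 mg/kg, against 4.49 and 3.23 in controls and 1.09 and 0.18 in the AMG A controls. Zscan12, Cog8, Lrrc27, Coa7 and Zdhhc22 likewise had AMG A control means between those of the 60 mg/kg and AMG B control animals. Lingo2 fell on 1 of its 2 probe sets and lost its call without animal 26 (adjusted p = 0.054).

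The low dose was set beside the high one. Between 60 and 3 mg/kg 749 genes differed (5.27%), 510 higher (3.59%) and 239 lower (1.68%), and 576 of the 1777 genes called against control were among them, all in the same direction; both counts share the 60 mg/kg animals. With only these 8 arrays in the fit the count was 5, and it ran from 331 without animal 30, whose array stood apart with an SD of scores of 1.99 against 1.16 to 1.33 in the rest of its group, to 916. Between 3 mg/kg and control no gene passed in limma's test, with 1264 at an unadjusted p under 0.05 and 92 adjusted calls with array weights. The acinar enzyme genes gave 22 lower calls of 27 between 60 and 3 mg/kg, against 24 between 60 mg/kg and control. The ATF4 list gave 11 rises against 14, the cell-cycle list 5 against 8 and the Reg list 4 against 5. Endothelial genes gave 1 fall against 7, contractile genes 0 rises against 4, interferon-inducible genes 0 rises against 3, duct genes 5 rises against 3, stellate genes 2 rises against 4 and islet genes 3 falls against 4. Amy2a3 had mean scores of 2.72, 2.43 and 1.53 at 0, 3 and 60 mg/kg, with SDs of 0.27, 0.36 and 0.082 (n = 4 animals each). Against 3 mg/kg it differed by -0.90 (SE 0.18, adjusted p = 0.0076).

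The largest rises against 3 mg/kg were Tspan1 (4.68), Reg3b (4.42), Prm2, a sperm protamine (4.28), and Atf3 (4.27), and the largest falls were Nell1 (-4.97), Prrt3 (-4.03), Sftpc, a lung surfactant protein (-3.5), and Brd3, a chromatin reader (-3.28). Of these Reg3b and Prrt3 had the smallest adjusted p (2.2e-06 and 2.2e-06), and Reg3a (3.5, adjusted p = 4.8e-05) and Stac2 (4.26, adjusted p = 3.9e-07) also passed. Between AMG A at 30 mg/kg and its own controls no gene passed, with 1057 at an unadjusted p under 0.05 and 48 adjusted calls with array weights. The doses differ, so the compounds were not tested against each other. Reg3b had a mean of 5.34 ± 0.15 at 60 mg/kg AMG B and 0.67 ± 0.77 at 30 mg/kg AMG A, against 1.05 ± 0.79 and 1.0 ± 0.56 in their controls (SD, n = 4 each). Amy2a3 had 1.53 ± 0.082 at 60 mg/kg AMG B and 2.05 ± 0.16 at 30 mg/kg AMG A, against 2.72 ± 0.27 and 2.33 ± 0.27 in their controls.

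Adrenal and liver of the same animals allowed a test of whether the effect differed between organs. The effect of 60 mg/kg in pancreas differed from that in adrenal for 1182 genes (8.31%), 509 more positive in pancreas (3.58%) and 673 more negative (4.73%). From that in liver it differed for 968 genes (6.81%), 446 more positive (3.14%) and 522 more negative (3.67%), and 521 of the genes called in pancreas were in both sets. With the animal as a replicate block the counts were 1264 and 1071. In adrenal itself 1212 genes were called (8.53%), 591 higher (4.16%) and 621 lower (4.37%), and in liver 1058 (7.44%), 514 higher (3.62%) and 544 lower (3.83%). Both counts, and the adjusted p within adrenal or liver given below, came from fits on all AMG B arrays of that organ over every day. Without animal 25 the count against adrenal was 641 and that against liver 506, and without animal 26 they were 658 and 476.

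**Figure D5:**
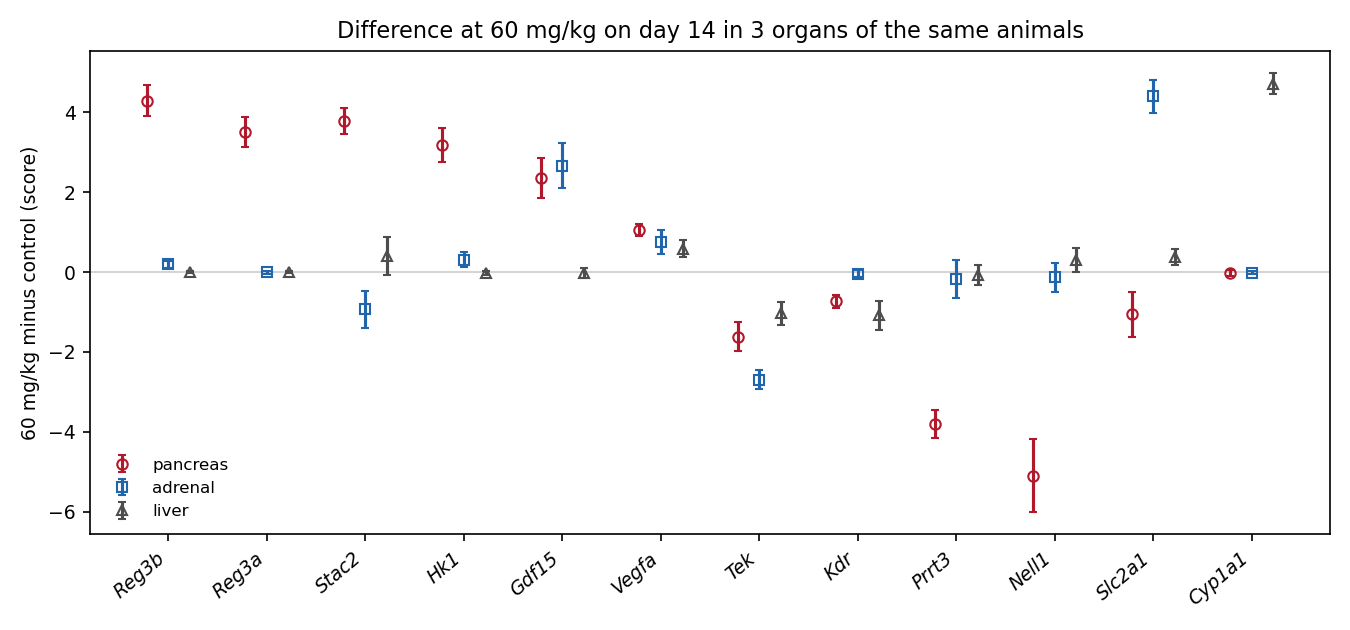
Difference between 60 mg/kg and control on day 14 (vertical axis, score; bars are the SE of the fit) for 12 genes in pancreas (red circles), adrenal (blue squares) and liver (grey triangles). Reg3a and Reg3b are above 0 in pancreas and near 0 in the other 2 organs, Tek is below 0 in all 3, and Slc2a1 and Cyp1a1 are highest in adrenal and in liver.

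The rise of the Reg3 genes in pancreas differed from their values in both other organs. Reg3b differed by 4.29 in pancreas, 0.19 in adrenal and 0.0035 in liver (differences between organs 4.1 and 4.29, adjusted p = 1.6e-05 and 3.1e-06). For Reg3a the differences between organs were 3.51 and 3.5 (adjusted p = 6.5e-05 and 4.6e-05). Amy2a3, Ctrb1, Ins2, Muc1 and Dll4 lay at a low, nearly constant score in adrenal and liver of both groups, where no fall could show, so their organs were not compared. The counts of genes more negative in pancreas hold such genes too, and Kdr scored lower in control adrenal than in either pancreas group. Hk1 differed from both organs (2.87 and 3.2, adjusted p = 0.0037 and 0.0018), though not with the mean of its probe sets (adjusted p = 0.95 and 0.74), as did Prrt3 (-3.63 and -3.73) and Stac2 (4.71 and 3.38).

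The vascular genes gave a mixed result. Tek differed by -1.62 in pancreas, -2.7 in adrenal (adjusted p = 1.4e-08) and -1.03 in liver (adjusted p = 0.023), and the organs were not shown to differ (adjusted p = 0.15 and 0.49). For Kdr the difference was -0.73 in pancreas, -0.04 in adrenal and -1.08 in liver; pancreas differed from adrenal by -0.69 (adjusted p = 0.0041), but with the mean of its 2 probe sets that difference was 0.73, and from liver it was not shown to differ (adjusted p = 0.56). For Vegfa the differences were 1.05, 0.74 and 0.58 in pancreas, adrenal and liver, past the threshold in pancreas (adjusted p = 0.0003) and not in adrenal or liver (0.13 and 0.1), with no difference between organs past the threshold (adjusted p = 0.72 and 0.33). Gdf15 rose in pancreas and in adrenal, by 2.35 and 2.66, and its difference in pancreas exceeded that in liver by 2.38 (adjusted p = 0.023).

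The largest differences between organs included genes that moved in the other organ. For Slc2a1, the glucose transporter GLUT1, the difference was -1.06 in pancreas (adjusted p = 0.23) and 4.4 in adrenal (adjusted p = 5.6e-08), which gave -5.45 between the organs. For Cyp1a1, the target gene of the aryl hydrocarbon receptor, it was -0.024 in pancreas and 4.72 in liver (adjusted p = 0.87 and 1.3e-12), which gave -4.74 between the organs. Ropn1l, a sperm flagellar protein, and Svs5, a seminal vesicle protein, had differences from adrenal of -5.44 and -5.2, and rose there. On the pancreas side the largest differences from adrenal were those of Tspan1 (5.07), N4bp2l1 (4.92), Stac2 and Rfng, a fringe glycosyltransferase (4.62), and of Ntsr1 among the falls (-5.24). From liver they included those of Tspan1 (4.8), Dolpp1 (4.68) and Kcnj15, a potassium channel (4.65), and, among the falls, of Nell1 (-5.4), Ntsr1 (-4.72) and Gip (-4.62). Ntsr1 and Gip scored far lower in control adrenal and liver than in control pancreas, which limits the fall that could show there.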

How the data were processed

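Total RNA (5 ug) was extracted with Qiagen RNeasy midi kits and biotin-labelled in 1 cycle for Affymetrix rat arrays, per the labels. The deposited values are scores that the authors standardised per probe set; no header or label names the scanner software, background correction or normalization. From the values, the scale before standardising appears linear. Scores have no logarithm, so limma was run on them as deposited. Of 31042 probe sets 20826 name 1 gene symbol, 436 several and 9780 none in the platform annotation. Each gene was represented by the probe set whose variance over 36 control arrays lay most between organs. Limma (version 3.58.1, R 4.3.3) fitted lmFit, contrasts and eBayes with a trend on all 24 pancreas arrays in 6 groups, or 24 arrays of 2 organs, two-sided, with Benjamini-Hochberg adjustment over 14217 genes and a threshold of 0.05. A gene was called where it passed. The calls within adrenal or within liver came from fits on all AMG B arrays of that organ, over every dose and day. The steps were tested on simulated scores. No 2 arrays correlated above 0.769. Arrays have no counts, so the number of animals limits precision.

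Same-animal deviations between organs correlated weakly (median r 0.0288 with adrenal and 0.0218 with liver over 12 animals), and the animal number comes from the labels. Alternatives were quantile normalization, the mean of probe sets, another choice of probe set, a filter on genes, fits on the compared groups, array weights, eBayes without trend, omission of each animal and the animal as a block; a fit without animal 30 and one on the AMG B study were added after seeing the data. The samples, gene lists and comparisons were chosen with earlier results of these data known. Named genes are the 12 largest rises and falls with adjusted p under 0.05 and no overlap, up to 6 members of each list by smallest p, 5 VEGF and angiopoietin pathway genes and up to 4 rises and falls of other comparisons; all further genes named were chosen after their values were seen.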

Additional observations from a re-analysis of the deposited data

Results flagged for a closer look

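Some values lay far from the rest of their group of 4 by Dixon's criterion, which chance meets in about 1 in 20 groups. It was met in 13 of 284 groups of gene values and in 7 of 76 groups of list means. The gene values flagged were thus no more frequent than that rate, and the list means were more frequent. Many of these genes were chosen by p or by lack of overlap, so the rate is only a rough guide. In animal 33 these were Aqp12a at 0.84, Mylk at 4.65, Kdr at -0.71, P4ha1 at 1.90, Itgb7 at 1.45 and Slc38a5 at 0.42. Animal 34 stood apart for Dll4 at 1.06 and animal 36 for Nqo1 at 0.011. Among controls, animal 28 stood apart for Lgals3 at 1.33, Sox7 at 0.24 and Nell1 at -0.29, and animal 27 for Flt4 at 0.052 and Slc7a3 at 0.97. Of the list means, animal 33 stood apart for endothelial genes at 1.07, lymphocyte genes at 4.04 and respiratory chain genes at -0.75. Animal 36 stood apart for skeletal muscle genes at 3.62 and animal 35 for proteasome genes at -0.41. Control animal 28 stood apart for adipocyte genes at 1.99 and mesothelial genes at 3.08.

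The effect of 60 mg/kg in pancreas differed from that in both adrenal and liver, by limma's test of the difference, for Tspan1 (5.07 and 4.80), Stac2 (4.71 and 3.38), Reg3b (4.10 and 4.29), Reg3a (3.51 and 3.50) and Hk1 (2.87 and 3.20). Negative differences from both were those of Ntsr1 (-5.24 and -4.72) and Prrt3 (-3.63 and -3.74). Further differences from adrenal were Slc2a1 at -5.45, Ropn1l at -5.44, Svs5 at -5.20, N4bp2l1 at 4.92, Rfng at 4.62 and Kdr at -0.69. Further differences from liver were Nell1 at -5.40, Cyp1a1 at -4.74, Dolpp1 at 4.69, Kcnj15 at 4.65, Gip at -4.62 and Gdf15 at 2.38.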

How the results depend on the processing

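The count of genes called between 60 mg/kg and control was 1777; it was 1038 among genes above another organ in control pancreas, 993 with only the compared groups and 900 with the AMG B study alone, 2183 with animal 30 left out of the fit, 1996 with array weights, 1759 without trend, 1719 with the probe set chosen over all arrays, 1540 with the mean of probe sets, 1429 after quantile normalization, and 1033 to 1654 with 1 animal left out. Higher calls were 322 of the 1038, 484 of the 993 and 440 of the 900. Between 60 and 3 mg/kg the count was 749, with 338 under that filter, 5 with only the compared groups and 331 to 916 with 1 animal left out. Between 3 mg/kg and control it was 0, with 1 after quantile normalization, 92 with array weights and 0 to 4 with 1 animal left out. For AMG A at 30 mg/kg it was 0, with 3 for the mean of probe sets, 48 with array weights and 0 to 31 with 1 animal left out. The differences between organs gave 641 to 967 genes against adrenal and 476 to 804 against liver with 1 animal left out, and 1264 and 1071 with the animal as a replicate block. Of 142 named genes 125 were called, and 74 kept the call in all 8 omissions; 53 of the 125 kept it with only the compared groups, 96 after quantile normalization and 118 with array weights. Signs turned for Klk1 (-0.65 without animal 27 and -0.39 without 36, with omissions spanning -0.65 to 0.55), Reg1a (0.16 without 25, spanning -0.53 to 0.16), Flt4 (0.20, 0.032 and 0.090 without 27, 34 and 36, spanning -0.086 to 0.20), Pecam1 (0.0011, 0.12, 0.23 and 0.30 without 27, 28, 34 and 36, spanning -0.85 to 0.30), Atf4 (-0.0028, -0.0063 and -0.092 without 26, 27 and 36) and Asns (0.15 after quantile normalization and 0.017 without 33). With the probe set chosen over all arrays Gata6 was 0.85, Flt1 0.36 and Vldlr -0.30. Against adrenal, Kdr was 0.73 with the mean of probe sets and Gdf15 0.11 without animal 33 (omissions spanning -0.89 to 0.11). The cause was not tested. Signal over background was not available for these standardised scores.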
